A study of Mus musculus with 12 samples.

Results

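CpG methylation was examined at the promoters of 39 germ-cell genes, of 21911 protein-coding genes in the mouse annotation (GENCODE M21, GRCm38). The genes were taken from a list of germ-cell genes whose promoters are normally silenced by DNMT3 enzymes. The rule uses names and positions and no methylation value, but the list was drawn up with earlier results of these data known. A promoter was defined as the window of 1000 bp on each side of the annotated 5′ end of the gene, which covers the upstream sequence together with the first exon and often part of the first intron. These windows hold 2641 of the 21867550 CpG sites in the data, between 21 sites in Piwil1 and 139 in Dazl. By role, 15 of the genes act in the piRNA pathway, 8 in the meiotic chromosome axis and synapsis, 3 in meiotic recombination, 5 in transcription and chromatin, and 8 in RNA binding or other functions.

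The measurements come from 12 mouse embryonic stem cell lines that lack Dnmt1, Dnmt3a and Dnmt3b (triple knockout, TKO) and stably express a human enzyme from the pPyCAGIZ vector under Zeocin selection, at 50 μg/ml and then 25 μg/ml. The 6 groups had 2 independently derived lines each and expressed wild-type (WT) DNMT3A, WT DNMT3B in a first set of lines (set a), DNMT3B N656I, WT DNMT3B in a second set (set b), DNMT3B K777A or DNMT3B N779A. N656I, K777A and N779A are single amino acid substitutions in DNMT3B. DNMT3A and N656I were compared with set a, and K777A and N779A with set b, following the paper, which lists each pair with its own WT DNMT3B lines. The library names of set b, K777A and N779A share a prefix, the letter i, which those of DNMT3A, set a and N656I lack. Which WT set belongs to which comparison was inferred from that prefix. All lines lack the maintenance enzyme DNMT1, and a line with the empty vector was not analysed here. The data hold no RNA, so the stem cell identity of the lines and the activity of the germ-cell genes were not measured. Methylation was read by enhanced reduced representation bisulfite sequencing (eRRBS), in which DNA is cut with restriction enzymes, treated with bisulfite and sequenced, so that an unmethylated cytosine is read as T.

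In the embryo, DNMT3A and DNMT3B set methylation de novo, and promoters of many germ-cell genes gain it during implantation although they are rich in CpG, while most CpG islands stay free of it. The methylation keeps these genes silent in somatic cells. In embryonic stem cells the same promoters are also bound by a repressor, PRC1.6, whose subunits recognise the E-box CACGTG and the E2F motif.

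Reads on CpG sites numbered 16224222 to 36029921 per line, and the depth at single sites was low, at 2.55 to 5.18 reads per covered site in 11 of the 12 lines. Set a line 2 stood apart, with 15.8 reads per covered site on 1030180 sites, and it covered only 241 of the 2641 germline promoter sites, against 546 to 1683 in the other lines. Levels are therefore given as methylated reads divided by all reads, pooled over the sites of a promoter or of all 39 promoters. Of the 39 promoters, 7 had at least 50 reads on at least 5 sites in all 12 lines, and Piwil4 reached this minimum in no line. Reads of a promoter come from few restriction fragments and carry no molecular identifiers, so intervals from read counts cover counting error only. The lines are the replicates, and the labels do not say how they differ beyond independent derivation.

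The stretches of 250 bases directly upstream of the annotated start are shown for 4 members that span the range of levels, 1 from the piRNA pathway, 1 from the chromosome axis and 2 RNA-binding proteins. They were read from GRCm38 on the strand of the gene, 5′ to 3′, and chosen after the levels were seen. Capitals mark each CpG and, where it occurs, the whole E-box CACGTG. Asz1 lies on the minus strand at chr6:18109062-18109311, Hormad1 on the plus strand at chr3:95559427-95559676, Dazl on the minus strand at chr17:50293637-50293886 and Ddx25 on the minus strand at chr9:35558529-35558778.
Asz1: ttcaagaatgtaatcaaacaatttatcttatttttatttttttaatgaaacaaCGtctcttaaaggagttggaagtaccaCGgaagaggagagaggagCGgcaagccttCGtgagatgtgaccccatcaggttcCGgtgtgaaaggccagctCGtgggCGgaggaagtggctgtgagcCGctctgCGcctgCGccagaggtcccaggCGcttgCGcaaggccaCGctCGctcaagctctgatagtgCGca
Hormad1: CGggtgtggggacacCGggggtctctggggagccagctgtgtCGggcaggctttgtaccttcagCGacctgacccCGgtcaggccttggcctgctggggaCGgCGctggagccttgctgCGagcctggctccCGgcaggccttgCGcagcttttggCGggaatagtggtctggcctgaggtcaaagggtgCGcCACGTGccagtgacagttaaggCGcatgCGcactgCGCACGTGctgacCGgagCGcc
Dazl: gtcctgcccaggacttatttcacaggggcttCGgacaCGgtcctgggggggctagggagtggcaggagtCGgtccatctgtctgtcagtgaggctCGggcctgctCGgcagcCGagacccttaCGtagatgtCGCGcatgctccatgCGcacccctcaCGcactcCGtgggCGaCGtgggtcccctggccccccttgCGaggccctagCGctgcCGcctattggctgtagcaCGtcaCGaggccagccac
Ddx25: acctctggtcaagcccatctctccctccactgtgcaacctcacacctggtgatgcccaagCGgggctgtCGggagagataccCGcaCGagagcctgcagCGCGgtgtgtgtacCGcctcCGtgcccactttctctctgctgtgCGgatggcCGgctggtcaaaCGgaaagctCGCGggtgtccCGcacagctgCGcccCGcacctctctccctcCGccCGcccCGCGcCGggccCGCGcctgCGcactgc
The Asz1 stretch holds 15 CpG, that of Hormad1 19, that of Dazl 19 and that of Ddx25 24, and only Hormad1 carries the E-box here, at 2 places. The read counts given for Hormad1 and Dazl include 1 further CpG each, whose C and G lie on either side of an end of the stretch.

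With the lines of a group pooled, methylation of these stretches differed widely between the genes and between the groups. A pooled value can rest on a single line. Over the whole Dazl promoter the DNMT3A lines differed widely from each other and the groups overlapped, as given below. In the DNMT3A lines, 66 of 82 reads (80.5%) were methylated upstream of Asz1, 30 of 56 (53.6%) upstream of Dazl, 36 of 164 (22.0%) upstream of Hormad1 and 1 of 64 (1.56%) upstream of Ddx25, with both lines pooled. In the K777A lines the corresponding values were 0.763% of 131 reads at Asz1, 7.56% of 119 at Dazl, 0 of 125 at Hormad1, which allows a level of up to 2.40%, and 0 of 161 at Ddx25, which allows up to 1.86%. In the set b lines 7.50% of 40 reads were methylated at Asz1, 0 of 40 at Dazl, which allows up to 7.50%, 4.46% of 112 at Hormad1 and 0 of 206 at Ddx25, which allows up to 1.46%. In the N779A lines the level was 4.72% of 127 reads at Asz1, 1.85% of 54 at Dazl and 3.28% of 122 at Hormad1. In the N656I lines it was 0 of 40 reads at Asz1, which allows up to 7.50%, 7.50% of 120 at Dazl and 3.97% of 252 at Hormad1. Set a had 1.33% of 75 reads at Dazl and 2.70% of 111 at Hormad1, and only 3 reads on the Asz1 stretch, too few for a value. The most CpG-rich of the 4 stretches, that of Ddx25, had at most 1 methylated read in each group, from 28 to 206 reads.

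Over all 39 promoters, the DNMT3A lines were the most methylated and the K777A lines the least. With DNMT3A, the pooled level was 15.5% in line 1, with a 95% Wilson interval of 14.5 to 16.5%, and 17.9% in line 2 (16.7% ± 1.70, SD, n = 2). It was 9.08% and 4.28% in set a (6.68% ± 3.40) and 6.32% and 6.34% in the N656I lines (6.33% ± 0.0191). Both DNMT3A lines lay above both set a lines, by 10.0 percentage points between the means, and the N656I values fell between the set a lines, with a difference of the means of -0.349 percentage points. Against set a line 1 alone, the differences were 7.61 percentage points for DNMT3A and -2.75 for N656I.

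In the second set of groups the level was 9.02% and 6.004% in the WT lines of set b (7.51% ± 2.13, SD, n = 2), 2.01% and 2.57% in the K777A lines (2.29% ± 0.401) and 4.47% and 5.74% in the N779A lines (5.10% ± 0.897). Both K777A lines lay below both set b lines, with a difference of the means of -5.22 percentage points. The N779A lines also lay below set b, with a difference of -2.41 percentage points that was close to the SD of set b and came to -0.901 without set b line 1. The 2 WT sets overlapped, with a difference of 0.835 percentage points, or -1.57 without set a line 2. Over all CpG sites the pooled level was 34.1% and 35.4% in the DNMT3A lines, 16.01% and 14.9% in set a, 13.8% and 10.5% in the N656I lines, 13.7% and 12.4% in set b, 6.18% and 7.49% in the K777A lines and 11.03% and 11.8% in the N779A lines. The DNMT3A lines were thus highest and the K777A lines lowest in both measures, while set a lay above set b over all sites and below it in the mean of the germline promoters. The part of the overall level in the differences at promoters was not tested.

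Germline promoters were more methylated than the promoters of all other protein-coding genes in 12 of 12 lines, by 4.92 ± 3.91 percentage points (mean and SD over lines). The other promoters, with 1315181 CpG sites, had 4.31% and 5.25% in the DNMT3A lines, 2.32% and 2.61% in set a, 1.77% and 1.47% in the N656I lines, 2.16% and 1.93% in set b, 1.75% and 1.79% in the K777A lines and 2.70% and 2.14% in the N779A lines. Since germline promoters are somewhat less CpG-rich than others, with 12.9 CpG within 100 bp on each side of a site against 15.7, the other promoters were also weighted to the CpG density of the reads on the germline promoters. They then had 6.12% and 7.20% in the DNMT3A lines, 3.03% and 2.60% in set b and 1.80% and 1.81% in the K777A lines. The germline promoters still lay above them in 12 of 12 lines, by 4.29 ± 3.24 percentage points. The gap was wide in the DNMT3A lines and narrow in the K777A lines, where both levels were near 2%. A level above that of the other promoters was not particular to the 39 genes. Promoters of a further list of 40 germ-cell genes also lay above all other promoters in 12 of 12 lines, with 12.5% and 11.4% in the DNMT3A lines, 6.10% and 10.9% in set a, 4.49% and 3.16% in the N656I lines, 4.94% and 4.39% in set b, 1.99% and 2.996% in the K777A lines and 4.16% and 3.84% in the N779A lines. They exceeded the 39 promoters in set a line 2 and K777A line 2 and lay below them in the other 10 lines.

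**Figure D1:**
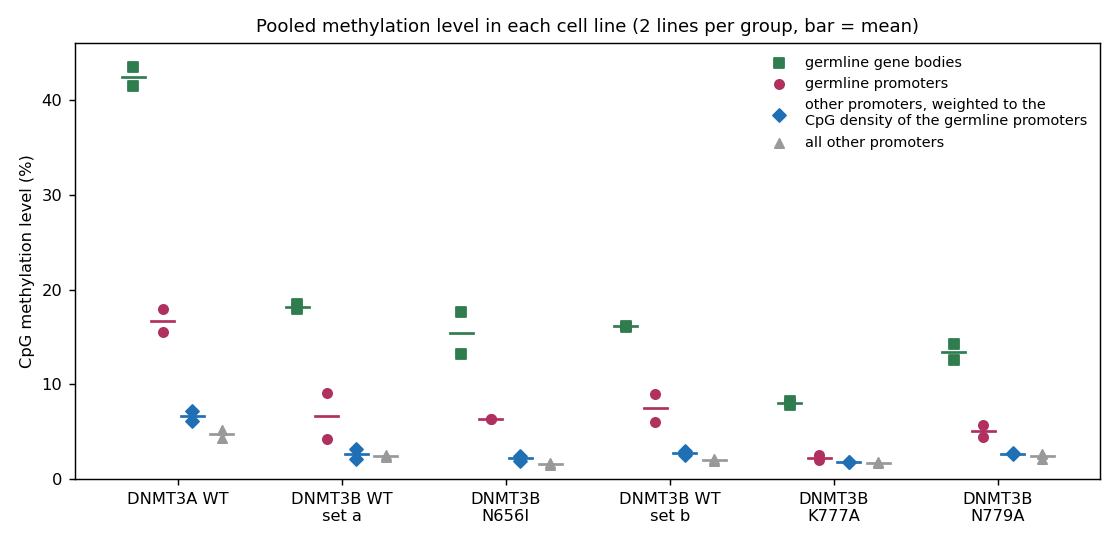
Pooled CpG methylation level in percent (vertical axis) in each of 12 cell lines, by group (horizontal axis), for germline gene bodies, germline promoters, other promoters weighted to the CpG density of the germline promoters, and all other promoters; points are lines and bars the means of 2 lines. The germline promoters sit between the gene bodies and the other promoters in each group and reach 15.5% and 17.9% in the DNMT3A lines, against 2.01% and 2.57% in the K777A lines.

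Single promoters were then tested against promoters of like CpG density. All promoters were sorted into 20 classes of mean CpG density, the log2 odds of methylation of each line were centred on the median of the class, and the mean over the 6 groups was tested with limma. Of 10997 promoters tested, 657 were called higher at a Benjamini-Hochberg adjusted p under 0.05 (5.97%). Of the 39 germline promoters, 23 had enough reads in every group, and of these 15 were called higher. The difference was above 0 in 22 of the 23, with a median of 1.69 on the log2 odds scale against 0.08 for all promoters tested. Since the median of all promoters tested was also above 0, most of them lay above 0 as well. The difference is a mean over the 6 groups and does not show that it holds with each enzyme. The 15 were 6 of 9 tested in the piRNA pathway, 4 of 6 in the chromosome axis and synapsis, 1 of 2 in recombination, 1 of 1 in transcription and chromatin and 3 of 5 in the remaining group. Leaving out set a line 2 gave 15 of 23 as well, against 5.95% of all promoters tested, while 8 of 11 were called without set a line 1, against 5.89%, and 10 of 18 without N779A line 2, against 4.1%. This test was added after the pooled levels were seen.

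The differences were large for named members. In the piRNA pathway, Mov10l1, a helicase that handles piRNA precursors, stood 3.04 ± 0.294 (log2 odds ± SE, adjusted p = 0.000165, limma) above its density class, Asz1, an ankyrin repeat protein of the germ granule, 2.98 ± 0.317 (adjusted p = 0.000227) and Tdrd1, a tudor protein that binds Piwi proteins, 2.78 ± 0.247 (adjusted p = 1.8e-05). Mael, which acts in transposon silencing, stood 1.77 ± 0.406 above its class (adjusted p = 0.0178). Among genes of synapsis, Sycp1, the transverse filament of the synaptonemal complex, stood 2.83 ± 0.266 above (adjusted p = 4.97e-05), Sycp3, an axis protein, 2.03 ± 0.302 (adjusted p = 0.00212) and Hormad1, also of the axis, 2.00 ± 0.331 (adjusted p = 0.00267). Dpep3, a testis dipeptidase, had the largest difference at 3.12 ± 0.368 (adjusted p = 0.000769). Mov10l1, Sycp1 and Dpep3 were named after their values were seen.

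Other members differed little from their class or missed the threshold. Ddx25, a helicase of spermatids, differed by 0.10 ± 0.231 (adjusted p = 0.842), Hormad2 by 0.09 ± 0.215 (adjusted p = 0.846) and Stag3, a meiotic cohesin subunit, by -0.07 ± 0.199 (adjusted p = 0.869, all by limma). Dmc1, the meiotic recombinase, lay 1.07 ± 0.340 above its class and missed the threshold (adjusted p = 0.0699). Hormad2 and Stag3 were also named after their values were seen. Of a further list of 40 germ-cell genes, 15 were tested and 4 called higher, with a median of 0.69, and the median of 16 housekeeping promoters tested was -0.06.

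**Figure D2:**
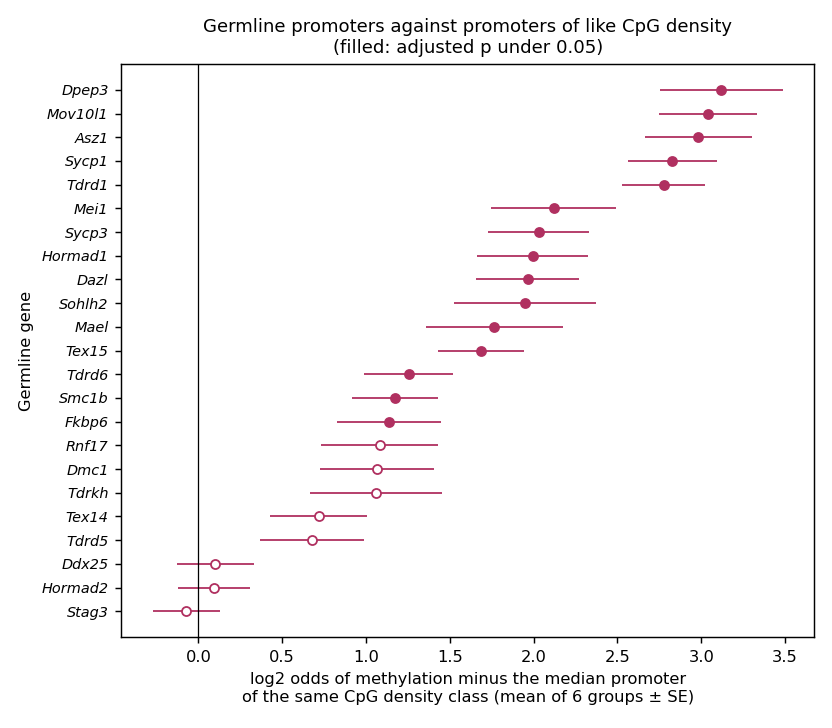
Difference in log2 odds of methylation (horizontal axis) between each of 23 germline promoters (vertical axis) and the median promoter of the same CpG density class, as the mean of 6 groups with its SE; filled points passed an adjusted p under 0.05. Dpep3, Mov10l1 and Asz1 lead with 3.12, 3.04 and 2.98, and Ddx25, Hormad2 and Stag3 lie at 0.10, 0.09 and -0.07.

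The single members ordered the groups in different ways. Over members with 50 reads in a group, the median level was 14.9% of 37 members for DNMT3A, 7.01% of 32 for set a, 6.32% of 39 for N656I, 6.37% of 33 for set b, 2.08% of 39 for K777A and 5.72% of 38 for N779A. The highest was Asz1 for DNMT3A (63.9%) and set a (41.8%), the bromodomain gene Brdt for N656I (32.0%) and N779A (18.8%), Gtsf1 for set b (31.0%) and the transcription factor gene Sohlh1 for K777A (9.02%), where Brdt and Sohlh1 were named after their values were seen. Among the piRNA genes, Tdrd1 was read well in all lines, with 30.4% and 23.7% in the DNMT3A lines, 19.9% and 15.6% in set a, 8.23% and 6.72% in the N656I lines, 9.80% and 2.33% in set b, 3.87% and 3.64% in the K777A lines and 4.32% and 5.34% in the N779A lines. Its DNMT3A values lay above all others. Asz1 had the highest pooled level of the 37 members with 50 reads in the DNMT3A lines, with 57.4% and 72.4% (95% Wilson intervals 48.3 to 66.0% and 62.2 to 80.7%), and 49.3% in set a line 1. It had 5.37% and 7.62% in the N656I lines, 27.9% and 10.3% in set b, 2.59% and 4.07% in the K777A lines and 2.23% and 13.5% in the N779A lines, while set a line 2 had only 12 reads there.

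Ddx4, the germ-cell helicase also called Vasa, had 9.41% and 19.3% in the DNMT3A lines, 14.3% and 1.45% in set a, 3.64% and 2.70% in the N656I lines and 0% and 4.41% in set b. It had 0% and 0.962% in the K777A lines and 0% and 11.5% in the N779A lines, with 25 and 38 reads in the first line of each. Mael had 6.90% and 1.55% in the DNMT3A lines, 6.94% in set a line 1 and 3.18% and 12.5% in the N656I lines, and set a line 2 had no read on it. Piwil2, a Piwi protein, had 14.7% and 19.2% in the DNMT3A lines against 5.80% and 0% in set a, and N779A line 1 had 30.0% from 30 reads. Fkbp6, a co-chaperone of the piRNA pathway, had 12.1% and 31.7% in the DNMT3A lines, 8.57% and 0.294% in set a and 0 of 93 and 0 of 75 reads in the N656I lines, which allows up to 3.23% in the first. Gtsf1, a zinc finger protein that assists Piwi proteins, had 18.5% and 41.2% in the DNMT3A lines from 27 and 68 reads and 25.0% and 32.0% in set b from 8 and 50 reads. The other groups had 15.6% and 0% in set a from 128 and 115 reads, 14.7% and 5.88% in the N656I lines, 0% and 5.77% in the K777A lines and 0% and 14.6% in the N779A lines.

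Among genes of the chromosome axis, Hormad1 had 25.99% and 19.7% in the DNMT3A lines, 10.6% and 1.596% in set a, 4.69% and 6.28% in the N656I lines, 16.5% and 3.33% in set b, 4.23% and 1.08% in the K777A lines and 0% and 7.80% in the N779A lines. Sycp3 had 12.2% and 17.6% in the DNMT3A lines, 8.12% in set a line 1, with 24 reads in line 2, 5.68% and 3.05% in set b and 3.37% and 2.18% in the K777A lines. Smc1b, a meiotic cohesin subunit, stayed under 10% in all lines, with 7.83% and 6.36% in the DNMT3A lines, 1.43% and 0% in set a, 8.46% and 2.70% in set b and 4.44% and 4.202% in the K777A lines. Of these, Hormad1 and Sycp3 had both DNMT3A lines above the other lines, and Smc1b did not, since set b line 1 had 8.46%.

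In recombination, Mei1, needed for meiotic DNA breaks, had 4.26% and 46.9% in the DNMT3A lines, 2.82% and 0.299% in set a and 12.3% and 25.8% in set b, so that the DNMT3A lines differed from each other by more than the means of any groups did. Dmc1 had 17.6% and 10.3% in the DNMT3A lines, 10.7% in set a line 1, 2.78% and 0% in set b and 0% and 2.11% in the K777A lines. In transcription, Sohlh2, a basic helix-loop-helix factor of germ cells, had 36.7% and 20.9% in the DNMT3A lines, 14.2% in set a line 1, 16.5% and 1.91% in set b and 0% and 1.99% in the K777A lines. The 5 promoters of this role were the most methylated as a group in the DNMT3A lines, at 36.5% and 28.7% pooled, against 11.97% and 14.7% for the chromosome axis. They are also CpG-poor, with a mean of 5.88 to 9.74 CpG within 100 bp on each side of a site, against 7.74 to 16.1 in the axis genes. In set b line 2 this role had 2.85%, the lowest of the roles.

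Among the remaining members, Dazl, an RNA-binding protein of early germ cells, had 18.0% and 3.17% in the DNMT3A lines, 8.26% and 10.5% in set a, 6.91% and 2.56% in the N656I lines, 0.870% and 6.82% in set b, 3.73% and 4.17% in the K777A lines and 0.746% and 5.74% in the N779A lines, and its groups overlapped. Tex15, which acts with the piRNA pathway in silencing, had 10.3% and 21.9% in the DNMT3A lines, 3.01% and 1.96% in set a, 1.94% and 2.72% in the N656I lines, 11.2% and 9.89% in set b, 1.51% and 0.809% in the K777A lines and 0.787% and 3.96% in the N779A lines. At Tex15 set b and the K777A lines did not overlap. Slc25a31, an ADP/ATP carrier of sperm, had 19.4% and 8.33% in the DNMT3A lines, 15.1% in set a line 1, with 2 reads in line 2, and 2.82% and 3.14% in the K777A lines. The set b lines had 30.8% and 2.38% from 39 and 42 reads, so that the DNMT3A lines lay between them. Tex101, a sperm surface protein, had 36.4% and 50.0% in the DNMT3A lines from 33 and 52 reads, 34.3% in set a line 1 from 35 reads, and 0% and 1.47% in the K777A lines, while the set b lines had 0% and 16.7% from 9 and 12 reads. Ddx25 stayed at or under 5.46% in all 12 lines.

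**Figure D3:**
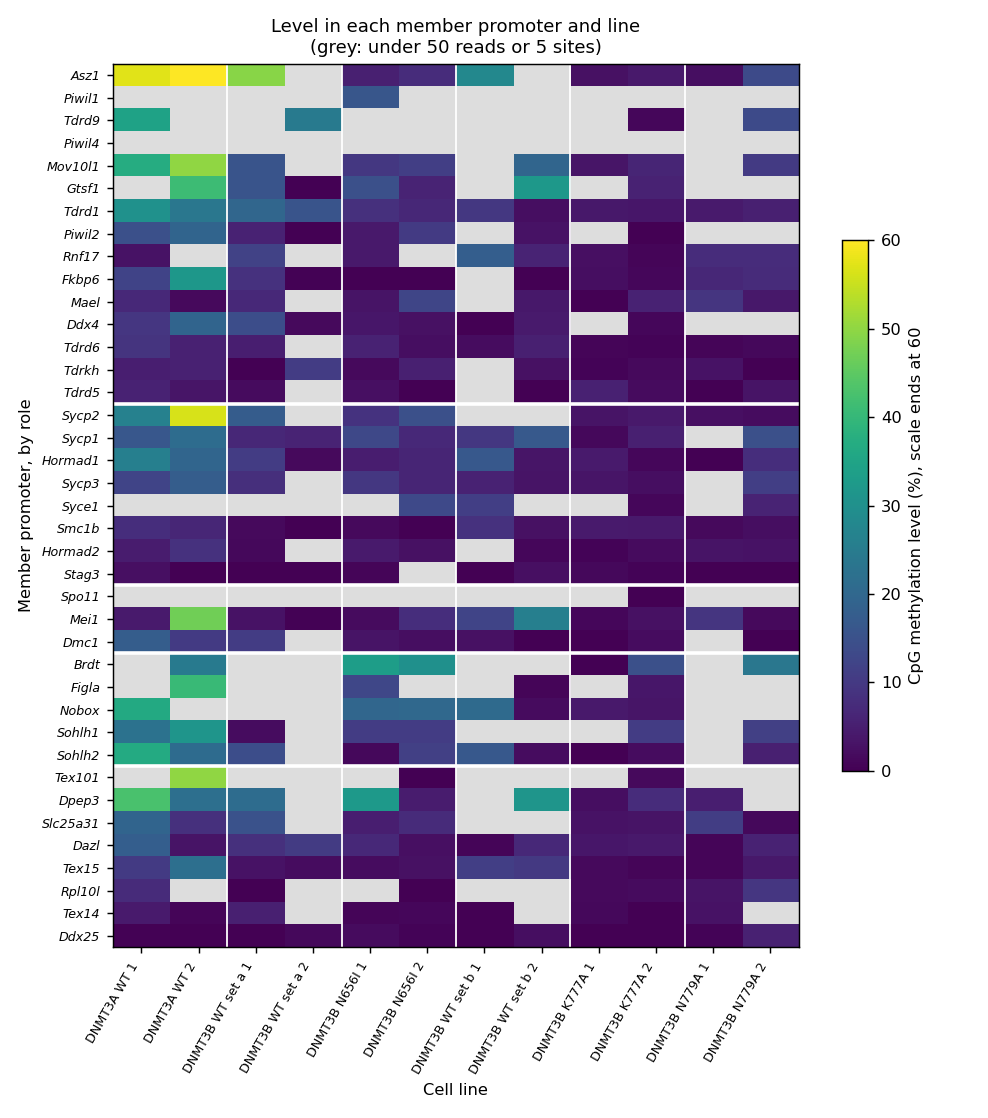
CpG methylation level in percent (colour scale, ending at 60) of each of 39 germline promoters (rows, ordered by role and by level) in each of 12 lines (columns); grey marks fewer than 50 reads or 5 sites. The DNMT3A columns hold most of the bright cells, with Asz1 at 57.4% and 72.4%, the K777A columns hold no value above 14.8%, and set a line 2 has a value for only 15 members.

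Across members, more CpG-dense promoters had lower levels. Pearson's r of the pooled level with the mean CpG density of the promoter was -0.591 in the DNMT3A lines (Spearman's rho -0.602, 37 members with 50 reads), -0.346 in set a (rho -0.279, 32 members), -0.474 in the N656I lines (rho -0.530, 39 members), -0.454 in set b (rho -0.403, 33 members), -0.264 in the K777A lines (rho -0.275, 39 members) and -0.661 in the N779A lines (rho -0.696, 38 members). The members share libraries, and these values are descriptions. Mean density ran from 3.41 CpG in Spo11 to 22.3 in Tdrd5.

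Within CpG density classes, germline promoters lay above other promoters in every line only at dense sites. At sites with 12 or more CpG within 100 bp on each side, which make up 52.6% of the sites in germline promoters and 60.5% in the others, the level was 8.15% and 6.71% in the DNMT3A lines against 0.741% and 0.842% in other promoters. It was 4.10% and 1.64% in set a against 0.719% and 0.695%, 3.69% and 3.35% in the N656I lines against 0.607% and 0.573%, and 4.88% and 3.31% in set b against 0.697% and 0.684%. In the K777A lines it was 1.57% and 1.83% against 0.900% and 0.475%, and in the N779A lines 2.29% and 3.43% against 1.05% and 1.28%. Germline promoters were above the others at these sites in 12 of 12 lines.

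At less dense sites single lines or groups lay below the other promoters, and whether the gap differed between the enzymes was not tested. With 6 to 11 CpG, germline promoters had 20.1% and 25.2% in the DNMT3A lines against 7.71% and 7.55%, but 2.37% and 2.72% in the K777A lines against 3.34% and 3.55%. With 3 to 5 CpG, they had 33.4% and 37.4% in the DNMT3A lines against 20.97% and 21.02%, 18.7% and 14.7% in set b against 7.73% and 6.94%, and 3.11% and 5.18% in the K777A lines against 4.75% and 5.53%. Set a line 2 also lay below with 3 to 5 CpG, at 5.05% against 8.997%, while line 1 lay above, at 18.5% against 8.91%. With 1 or 2 CpG, where a line had as few as 66 reads, the lines below were DNMT3A line 2, at 23.6% against 28.9%, set a line 2, at 0% against 10.7%, and N779A line 1, at 7.44% against 8.79%, and the other line of each group lay above. Both K777A lines were slightly above in that class, at 5.17% and 5.46% against 4.98% and 5.402%. The germline promoters were thus above the others in 10 of 12 lines with 6 to 11 CpG and in 9 of 12 lines in each of the sparser classes.

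**Figure D4:**
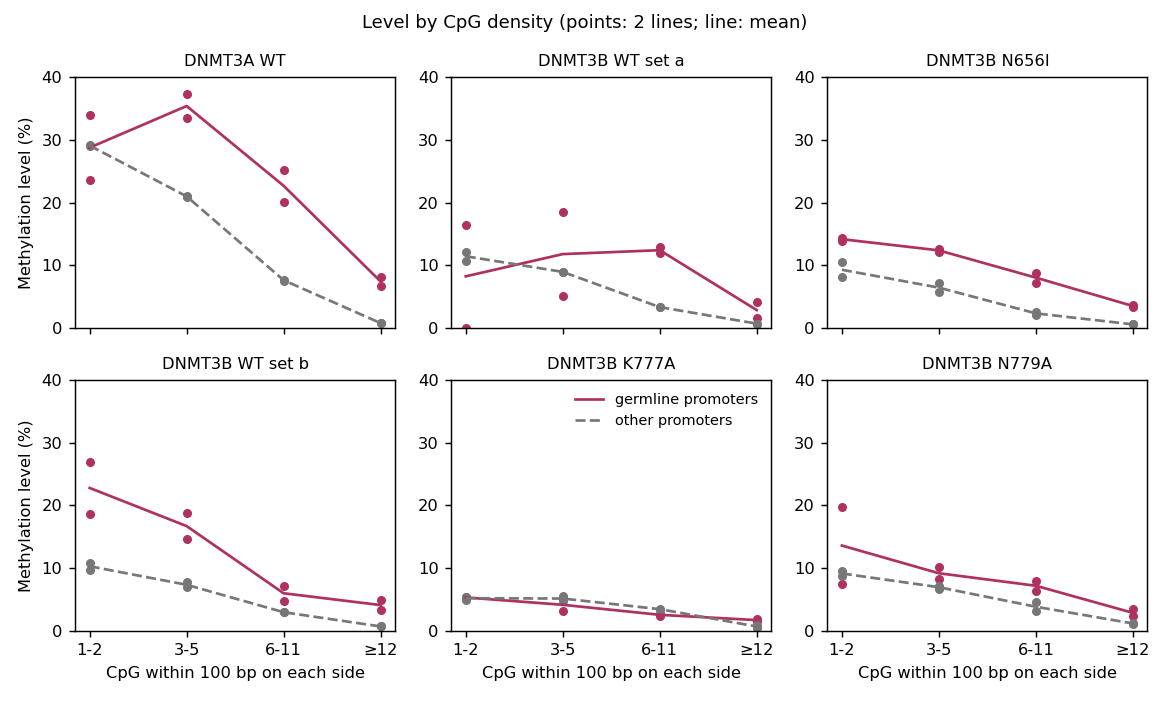
Methylation level in percent (vertical axis) of sites grouped by the number of CpG within 100 bp on each side (horizontal axis) in germline and other promoters, with 1 panel per group; points are lines and the curves join the means of 2 lines. In the DNMT3A panel the germline curve stays above the other curve from 3 to 5 CpG on, with 8.15% and 6.71% against 0.741% and 0.842% at 12 or more CpG, and in the K777A panel the curves lie close together.

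Around the gene start, the germline genes were less methylated from 0 to 200 bp than at the upstream edge of the window in both lines of DNMT3A, N656I, set b, K777A and N779A, and not in set a. In the DNMT3A lines the level was 41.8% and 53.6% in the bin from -1000 to -800 bp, 18.4% and 13.3% from -200 to 0 bp and 7.14% and 7.96% from 0 to 200 bp. In the K777A lines the same bins had 4.65% and 5.44%, 1.01% and 1.72%, and 2.50% and 2.05%. Set b had 13.5% and 10.8%, 3.98% and 2.65%, and 4.39% and 1.96%. From -1000 to -800 bp and from 0 to 200 bp, the N656I lines had 16.5% and 14.2%, and 4.46% and 3.02%, and the N779A lines 3.16% and 13.2%, and 2.94% and 3.62%, so that N779A line 1 was nearly flat. In set a the same bins had 8.26% and 0%, and 9.45% and 1.2%, higher at the start in both lines. The bin furthest upstream had 48 to 207 reads per line. From 0 to 200 bp other genes had 2.75% and 3.27% in the DNMT3A lines, 1.72% and 1.75% in set a, 1.26% and 1.1% in the N656I lines, 1.68% and 1.42% in set b, 2.10% and 2.03% in the K777A lines and 2.82% and 1.88% in the N779A lines. The germline genes lay above them there except in set a line 2, and by little in the K777A lines and N779A line 1.

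**Figure D5:**
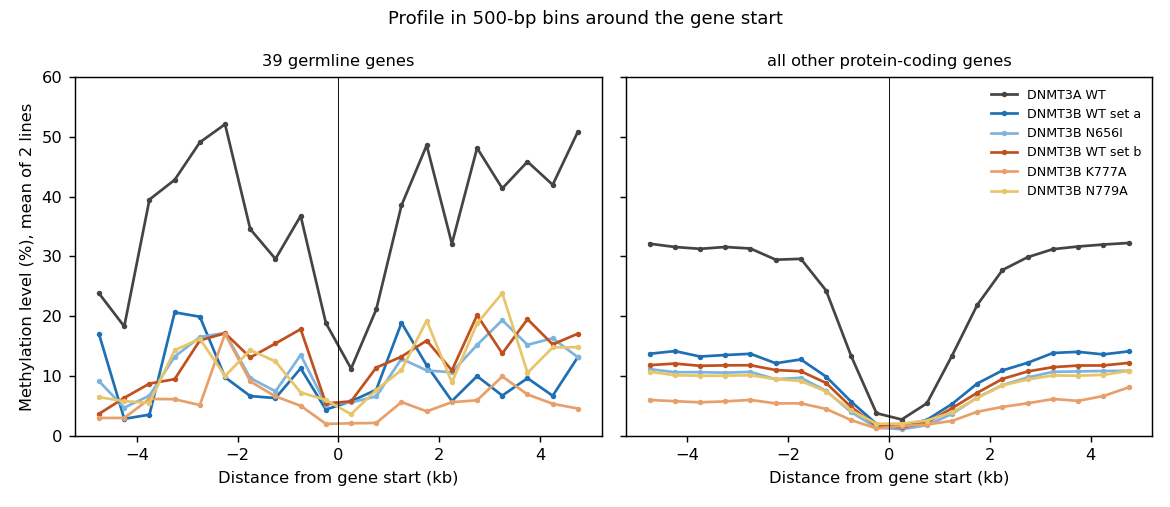
Methylation level in percent (vertical axis, mean of 2 lines) in bins of 500 bp against the distance from the gene start in kb (horizontal axis), for the 39 germline genes and for all other protein-coding genes; each colour is a group. Both panels dip at the start, and the curves of the germline genes vary more between bins, each of which holds few sites.

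The bodies of the germline genes, from 2000 bp downstream of the start to the end, had 41.4% and 43.4% in the DNMT3A lines, 18.5% and 17.9% in set a, 17.6% and 13.2% in the N656I lines, 16.1% and 16.2% in set b, 8.24% and 7.88% in the K777A lines and 12.5% and 14.3% in the N779A lines. These values were close to those of all other gene bodies, with 40.0% and 40.6% in the DNMT3A lines, 18.7% and 16.9% in set a, 16.5% and 12.3% in the N656I lines, 16.2% and 15.0% in set b, 7.59% and 8.81% in the K777A lines and 12.8% and 14.5% in the N779A lines. The promoters lay below the bodies in 12 of 12 lines, by a mean of -11.5 percentage points (SD 7.03 over lines). Sites with 12 or more CpG within 100 bp on each side made up 1389 of 2641 in promoters and 602 of 13933 in bodies. At such sites the mean level was 7.43% in promoters and 16.4% in bodies with DNMT3A, and 1.70% and 2.64% with K777A. With 1 or 2 CpG, only set b was higher in promoters, at 22.8% against 15.1%, and N656I had 14.2% against 14.5%. The part of CpG density in the gap was not tested.

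For single genes, promoter and body were compared within each line on the log2 odds scale. The promoter was called lower than the body in 3082 of 3110 genes (99.1%), with a median difference of -4.82. Of the germline genes 6 could be tested and all 6 were called lower, with a median of -2.04. The difference was -1.51 ± 0.444 at Tdrd1 (log2 odds ± SE, adjusted p = 0.00156, limma), -1.86 ± 0.491 at Hormad1 (adjusted p = 0.000504) and -4.12 ± 0.461 at Ddx25 (adjusted p = 4.49e-11). Mei1, Smc1b and Tex15 had -1.93, -2.71 and -2.15. Without set a line 2, 7 of 7 germline genes tested were called lower, with a median of -2.32, as were 6010 of 6085 genes, with a median of -4.77.

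Whether single promoters changed between the enzymes was tested with limma on log2 odds centred on the median promoter of each line. On reads simulated at the depths of these data, this fit recovered 0 of 200 promoters given a log2 change of 2 in each comparison. It recovered 4 to 17 of 200 at a change of 4 and 78 to 84 of 200 at a change of 6. A count of 0 calls therefore does not show that promoters were unchanged. For DNMT3A against set a, 3 of 5506 promoters were called (0.0545%), and of 13 germline promoters tested 0 were called, 1 at an unadjusted p under 0.05, against 11.8% of all promoters, and 0 by edgeR on the read counts. The median change was 0.63 for the 13 and -0.46 for all promoters, and without the centring 1.70 and 0.61, where 0.817% of all promoters and 0 members were called and 4 of 13 members had an unadjusted p under 0.05, against 11.6% of all promoters. The 3 largest changes among the members were 2.93 ± 1.40 at Mei1 (log2 odds ± SE, adjusted p = 0.387), 2.73 ± 1.43 at Fkbp6 (adjusted p = 0.445) and -2.23 ± 1.32 at Ddx25 (adjusted p = 0.512). Without set a line 2, 27 germline promoters could be tested, of which 0 were called and 2 had an unadjusted p under 0.05, against 7.88% of all promoters in that fit. The median of the members rested on single lines, at 0.37 without set a line 2, 1.49 without set a line 1 and 1.13 without DNMT3A line 1.

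For N656I against set a, 0 of 5604 promoters were called (0%), and of 13 germline promoters 0 were called, 0 at an unadjusted p under 0.05, against 6.14% of all promoters, and 0 by edgeR. The median change was 0.17 for the members, of which 7 of 13 were above 0, and -0.31 for all promoters. The direction of the members' median was not stable. It was -0.59 without set a line 2, with 8 of 27 above 0, -0.12 by edgeR, -0.69 in the 500 bp window and -0.14 without CCGG sites, and 0.05 without N656I line 1. The largest values were 1.83 ± 1.27 at Gtsf1 (adjusted p = 0.904), -1.80 ± 1.44 at Fkbp6 (adjusted p = 0.914) and 1.63 ± 1.41 at Mei1 (adjusted p = 0.924, all by limma). Without set a line 2, 0 of 27 were called and 3 had an unadjusted p under 0.05, against 5.07% of all promoters. The comparisons of DNMT3A and N656I share the set a lines.

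For K777A against set b, 0 of 8915 promoters were called (0%), and of 15 germline promoters 0 were called, 5 at an unadjusted p under 0.05, against 5.06% of all promoters, and 0 by edgeR. Before centring, the median promoter had log2 odds of only -6.943 and -6.855 in the set b lines, which leaves little room for a fall. The share of all promoters with a change above 0 was not calculated in any comparison. The change was above 0 in 1 of the 15 members, with a median of -1.93 against -0.31 for all promoters. Whether the members fell by more than this limit on the other promoters explains was not tested. Without K777A line 1 the median was -1.13 and 2 of 16 had an unadjusted p under 0.05, against 3.56% of all promoters, and without K777A line 2 these were 3 of 15, against 3.76%. Without set b line 1, 7 of 22 members lay above 0, with a median of -1.55. By edgeR 2 of 15 had an unadjusted p under 0.05, against 2.22%, and the median of all promoters was 0.12, the opposite sign. The largest values were -3.55 ± 1.36 at Mei1 (adjusted p = 0.859), -3.34 ± 1.36 at Sohlh2 (adjusted p = 0.883) and -3.34 ± 1.33 at Tex15 (adjusted p = 0.859, all by limma). These 3 promoters were each lower in both K777A lines than in both set b lines, with the exception of Sohlh2, where 1.99% in K777A line 2 exceeded 1.91% in set b line 2.

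For N779A against set b, 0 of 8136 promoters were called (0%), and of 10 germline promoters 0 were called, 3 at an unadjusted p under 0.05, against 5.47% of all promoters, and 0 by edgeR. The median was -1.97 for the members and -0.19 for all promoters. Without the centring these became -1.33 and 0.45, so that the median of all promoters changed sign, and 0 of 10 members had an unadjusted p under 0.05, against 6.08% of all promoters. By edgeR it was also 0 of 10, against 4.3%. The members' median was -1.04 without set b line 1, with 4 of 15 above 0, and -1.199 without N779A line 1. The largest values were -3.08 ± 1.29 at Hormad1, -3.05 ± 1.29 at Tex15 and -2.91 ± 1.32 at Mei1 (adjusted p = 0.879 for each, limma). The comparisons of K777A and N779A share the set b lines, so the little room for a fall at the median promoter applies to N779A as well. Between set b and set a, which hold the same enzyme, 0 of 4731 promoters were called (0%), and of 10 germline promoters 0 were called, 1 at an unadjusted p under 0.05, against 5.52% of all promoters, and 0 by edgeR. The largest member values were 4.01 ± 1.36 at Mei1 (adjusted p = 0.739), 2.42 ± 1.39 at Smc1b (adjusted p = 0.889) and -2.13 ± 1.15 at Tdrd1 (adjusted p = 0.889, all by limma), and without set a line 2, 0 of 15 were called and 1 had an unadjusted p under 0.05, against 5.1% of all promoters.

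In the gene bodies the same limma fit called 0 genes in each comparison (0%), with 27 to 31 germline genes tested, and few had an unadjusted p under 0.05. There were 3 of 28 for DNMT3A against 11.7% of all bodies, 2 of 28 for N656I against 10.1%, 1 of 31 for K777A against 5.62%, 2 of 31 for N779A against 4.77% and 2 of 27 between the WT sets against 14.3%. edgeR was not run on bodies. Without the centring, which removes the overall level of a line, 9188 of 12076 bodies were called for DNMT3A against set a (76.1%), and 24 of 28 germline bodies were called, all higher. For K777A against set b, 1298 of 13778 were called without the centring (9.42%), and 5 of 31 germline bodies were called lower.

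The bases next to the CpG are the subject of the study, and the levels of the germline promoters are given by them as a description. At CpG in TCGA, germline promoters had 21.5% and 23.4% in the DNMT3A lines, 15.2% and 0% in set a, 13.3% and 21.5% in the N656I lines, 12.9% and 11.8% in set b, 2.92% and 6.30% in the K777A lines and 7.69% and 9.42% in the N779A lines. At CpG in GCGC they had 15.1% and 16.7% in the DNMT3A lines, 4.45% and 0.644% in set a, 2.54% and 1.94% in the N656I lines, 3.13% and 0.980% in set b, 2.02% and 1.67% in the K777A lines and 0.952% and 5.75% in the N779A lines. Both DNMT3A lines lay above both lines of each WT DNMT3B set at GCGC. Other promoters there had 2.35% and 2.88% in the DNMT3A lines compared with 0.939% and 0.856% in set a.

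At CpG in CCGG the germline promoters had 18.8% and 19.3% in the DNMT3A lines, 15.9% and 9.09% in set a, 12.3% and 14.4% in the N656I lines, 15.9% and 11.2% in set b, 1.44% and 1.28% in the K777A lines and 8.76% and 6.42% in the N779A lines. At ACGT the K777A lines had 3.59% and 3.50% and set b 3.51% and 4.73%. In other promoters the K777A lines had 6.71% and 8.26% at ACGT and 0.917% and 0.681% at CCGG, against 3.69% and 3.24% at ACGT and 3.06% and 2.91% at CCGG in set b. CCGG is also the cutting site of MspI, used to make the libraries, and its part in these values was not tested.

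The E-box CACGTG, which reads the same on both strands, occurred in 25 of 39 germline promoters (64.1%) and in 27.5% of all protein-coding promoters, and within 250 bp of the start in 18 of 39 (46.2%) and in 10.4%. The E2F motif TCCCGC or its reverse complement GCGGGA occurred in 23 of 39 (59.0%) and in 55.4% of all promoters, and within 250 bp of the start in 19 of 39 (48.7%) and in 36.1%. A match is a run of letters and not a bound site. The 42 CpG within CACGTG in germline promoters had 11.6% and 13.0% in the DNMT3A lines, 13.5% and 0% in set a, 1.87% and 1.75% in the N656I lines, 9.09% and 1.47% in set b, 3.17% and 2.30% in the K777A lines and 3.17% and 7.25% in the N779A lines, with as few as 22 reads in a line. The 46 CpG within the E2F motif had 12.1% and 0% in the DNMT3A lines, 3.92% and 0% in the N656I lines, 1.19% and 4.46% in the K777A lines, 5.81% and 2.00% in the N779A lines and 0% in each line of both WT DNMT3B sets, from as few as 34 reads. At the E-box the groups overlapped in each of the 4 comparisons with a WT set.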

How the data were processed

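The members and lists were chosen with earlier results of these data known. According to the authors, read pairs were trimmed with Cutadapt (version 1.12 in the submitters' processing notes) and mapped to mm10 by Bismark 0.18.1 with Bowtie 1.2 as aligner, overlapping bases were counted once, pairs with several methylated cytosines outside CpG were dropped, and the plus and minus strand of a site were summed. The authors deposited raw counts of methylated reads and of all reads per CpG site and line, without normalization. All sites read CG in GRCm38 when checked, and 0 columns of per-sample values were left unused. Discarding pairs by non-CpG methylation can lower levels where an enzyme also methylates other cytosines. Cytosines filled in at MspI ends can lower the level at CCGG, and the authors clipped the first bases of both reads.

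Reads were pooled within 1000 bp on each side of the 5′ end of the gene record (GENCODE M21). For 6 members the longest coding transcript starts more than 500 bp away, among them Tex15 and Tex101. Log2 odds were log2((methylated reads + 0.5)/(unmethylated reads + 0.5)), centred on the median promoter of each line, and were tested with limma 3.58.1 in R 4.3.3 (moderated variances with a trend, all 12 lines in 1 fit, Benjamini-Hochberg adjustment over all promoters, threshold 0.05) where the 4 lines of a comparison had at least 50 reads on 5 sites. The test against 20 density classes used an offset of 1% of the reads of the promoter and promoters with at least 1 line of each group at the minimum. It was added after the pooled levels were seen, and its offset was changed from 0.5 reads, with which 17 of 23 members and 7.17% of all promoters were called higher, because on the same simulated reads that version made more false calls, although it also recovered more of the shifted promoters. edgeR 4.0.16 was the alternative on counts. No p was calculated for a level pooled over the members. Wilson intervals have 95% confidence, and the limit of a count of 0 is 3 reads of the total.

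Named members were, in each comparison, those called or otherwise the 3 with the largest change, those at the minimum in all 12 lines, and Dazl, Ddx4, Mael, Sycp3, Hormad1, Tex101, Asz1, Dmc1, Piwil2 and Slc25a31. Replicate numbers name independently derived lines. The alternatives were other read minimums, windows and gene starts, no centring, subsets of sites, a replicate block, and fits that omit 1 line. Levels and intervals were computed in Python 3.11.15 (numpy 2.4.6, pandas 2.3.3).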

Additional observations from a re-analysis of the deposited data

How the results depend on the processing

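The germline promoters stayed above the other promoters, by 1.25 to 5.71 percentage points, under every subset of sites, window and gene start and with any line left out (4.22 to 5.34), settings chosen after seeing the data, as was the test against promoters of like density. The pooled difference between the enzymes moved by more than the spread only on the 7 sites covered in all 12 lines, to 30.9 percentage points for DNMT3A against set a, to 9.42 for N779A against set b, the opposite direction, and to 5.88 for set b against set a. On sites covered in the 4 lines of the N779A comparison the promoter minus body difference became -7.07. The number of promoters called for DNMT3A against set a, 3 as reported, became 8 at 20 reads, 0 at 200 reads, 45 without centring (42 of them higher, against 0 of 3 with it), 0 in a fit of the 4 lines and 8 from sites with 10 reads. edgeR called 3 as well, all higher, while limma called all 3 lower. For N656I edgeR called 1, and for K777A 1 was called at 20 reads and 1 in the 500 bp window. At 200 reads no germline promoter could be tested between groups or against its body.

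With 1 line left out, a group's lone line is assumed to vary like the others. The calls then ranged from 0 to 162 for DNMT3A, 0 to 105 for N656I, 0 to 2 for K777A, 0 to 1 for N779A and 0 to 52 for the WT sets at promoters, and in bodies from 0 to 4874, 0 to 4786, 0 to 13, 0 to 12 and 0 to 4885, in the same order. The highest counts of the comparisons with set a came without set a line 1, which leaves only line 2 with its deep coverage of few sites. Without it 1 of 13 germline promoters was called for N656I (Gtsf1, 4.25, adjusted p = 0.0413, limma), against 1.81% of all promoters, and 1 of 10 between the WT sets (Mei1, 5.21, adjusted p = 0.0225), against 1.08%, where 0 were called otherwise, and 10 of 28, 10 of 28 and 11 of 27 germline bodies for DNMT3A, N656I and the WT sets, against 40.1%, 39.3% and 41.5% of all bodies. The highest counts for K777A and N779A came without set b line 2, as did 8 body calls between the WT sets. Without centring, 9188 bodies were called for DNMT3A, 24 of them germline genes, and 1298 for K777A, 5 of them germline genes.

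The promoter was called different from its body in 5013 of 5103 genes at 20 reads and 10 of 11 germline genes, in 179 at 200 reads, and in 3079 to 6018 with 1 line left out, the most without set a line 2. Promoters called higher than those of like density numbered 1176 at 20 reads, 60 at 200 reads, 162 in the 500 bp window and 307 to 644 with 1 line left out, and the germline promoters among them 22 of 33 tested at 20 reads (8.36% of all promoters), 1 of 1 at 200 reads (2.04%), 10 of 19 in the 500 bp window (1.86%) and 8 to 15 with 1 line left out, 8 of 11 without set a line 1 (5.89% of all promoters) and 10 of 18 without N779A line 2 (4.1%). With an offset of 0.5 reads 17 of 23 were called, against 7.17% of all promoters. The replicate numbers did not pair the lines (r of deviations -0.028 to 0.0175 over 15 pairs), and the replicate block gave 4 calls for DNMT3A and 0 in the other comparisons, with 0 germline promoters. Depth limits single promoters, 16 of which could not be tested against their density class.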
